A study of Danio rerio with 9 samples.

Results

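The islet hormone genes are 10 rows of the deposited count table, chosen by name, out of 28802 rows in all. They are the insulin genes ins and insb, the glucagon genes gcga and gcgb, the somatostatin genes sst1.1 and sst2, the ghrelin gene ghrl, the transcription factor gene pdx1 and the prohormone convertase genes pcsk1 and pcsk2. All 10 rows were present, and 8 of them had enough counts to enter the test across 21694 genes. The libraries came from whole larvae of the zebrafish, Danio rerio, at an age of 8 days post fertilization, with 7 larvae pooled per library, in 3 genotypes with 3 libraries each. In single mutants both copies of fam177a1a carried the stl700 allele, double mutants carried stl700 together with the stl746 allele, both homozygous, and wild-type larvae carried neither allele, with columns named AB, a standard laboratory line. Whether libraries of 1 genotype came from different clutches is not labelled, so p-values measure the spread between these libraries, which may be partly technical. The labels used here also do not say whether the genotypes shared parents, clutch or rearing. An effect of the alleles cannot be told apart from such differences.

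The zebrafish islet, as in mammals, is a cluster of endocrine cells in the pancreas. Beta cells release insulin, which lowers blood glucose, alpha cells release glucagon, which raises it, delta cells release somatostatin, which restrains both, and epsilon cells release ghrelin. Each hormone is made as a longer precursor that convertases cut inside secretory granules. In the liver, insulin induces glucokinase, the enzyme that traps glucose inside hepatocytes, and the same enzyme acts as a glucose sensor in beta cells. Several of these genes are also used outside the islet, for example pcsk1, pcsk2 and somatostatin genes in the brain, and pdx1 in the anterior gut. RNA of whole larvae adds these sources together, and fewer cells of a type cannot be told apart from less RNA per cell.

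Library totals were 17175936 to 18256978 counts in single mutants, 16978591 to 19276480 in double mutants and 18297048 to 24717581 in wild type. Values are given as CPM, counts scaled to a common library total with TMM factors, and 3 counts in a library correspond to 0.121 to 0.178 CPM. The row named fam177a1 averaged 0.638 ± 0.186 CPM in single mutants, 0.603 ± 0.252 in double mutants and 25.1 ± 2.45 in wild type (SD, n = 3 each). This follows the labels of mutants against wild type. The row does not tell single from double mutants, nor fam177a1a from its paralogue. Single-mutant replicate 1 stood apart from the other single mutants, with a chi-square per degree of freedom of 18.4 and 21.5 against them, where replicates 2 and 3 differed by 6.38. Pairs of wild-type replicates differed by 6.15 to 13.7 and pairs of double mutants by 3.35 to 4.78. Of the markers set down for the islet cell types, all 5 for beta cells, 4 for alpha cells, 3 for delta cells and 1 for epsilon cells had counts in every library.

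In wild-type larvae the hormone rows differed widely in level. Levels between genes are compared as CPM per kilobase of the row's length. The highest was ins at 27.2 ± 2.06, followed by sst1.1 at 19.5 ± 3.88, pcsk2 at 15.3 ± 1.204, gcgb at 13.0 ± 2.06 and pcsk1 at 11.1 ± 0.655 CPM per kilobase. Among these 5, ins lay above sst1.1 in every library, and the ranges of each later pair of neighbours overlapped. Much lower were pdx1 at 3.37 ± 0.601, gcga at 2.06 ± 0.531, ghrl at 0.655 ± 0.446, sst2 at 0.511 ± 0.147 and insb at 0.207 ± 0.210 CPM per kilobase. The steps from pcsk1 to pdx1, to gcga and to ghrl were each wider than the libraries' ranges, whereas ghrl, sst2 and insb overlapped in turn. The per-kilobase value of gcga rests on a row length of 2317 bases, against 592 bases for gcgb.

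The main insulin gene, ins, which encodes preproinsulin of beta cells, was not called in any comparison. It had 14.3, 16.2 and 15.8 CPM in single mutants, 12.9, 17.7 and 16.7 CPM in double mutants and 13.99, 13.5 and 12.1 CPM in wild type. Every single-mutant library was above every wild-type library, which was so for 22.6% of all genes in that direction, while the double mutants overlapped with wild type through their replicate 1. In single mutants the log2 fold change was 0.22 (95% interval −0.04 to 0.49, edgeR adjusted p = 0.168). In double mutants it was 0.26 (95% interval −0.01 to 0.52, adjusted p = 0.126). The lower bounds correspond to 0.970 and 0.996 times the wild-type level. Without double-mutant replicate 1 the gene was called as higher in double mutants (log2 fold change 0.40, edgeR adjusted p = 0.0281).

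The paralogue insb was near the limit of detection. It had 0, 3 and 5 counts in single mutants, 3, 1 and 2 counts in double mutants and 11, 4 and 0 counts in wild type, and did not enter the test. The summed counts gave a ratio of 0.672 in single mutants to wild type (95% counting interval 0.247 to 1.69) and 0.485 in double mutants to wild type (0.154 to 1.32). These intervals cover counting error only, and a difference was not detectable at this depth.

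**Figure D1:**
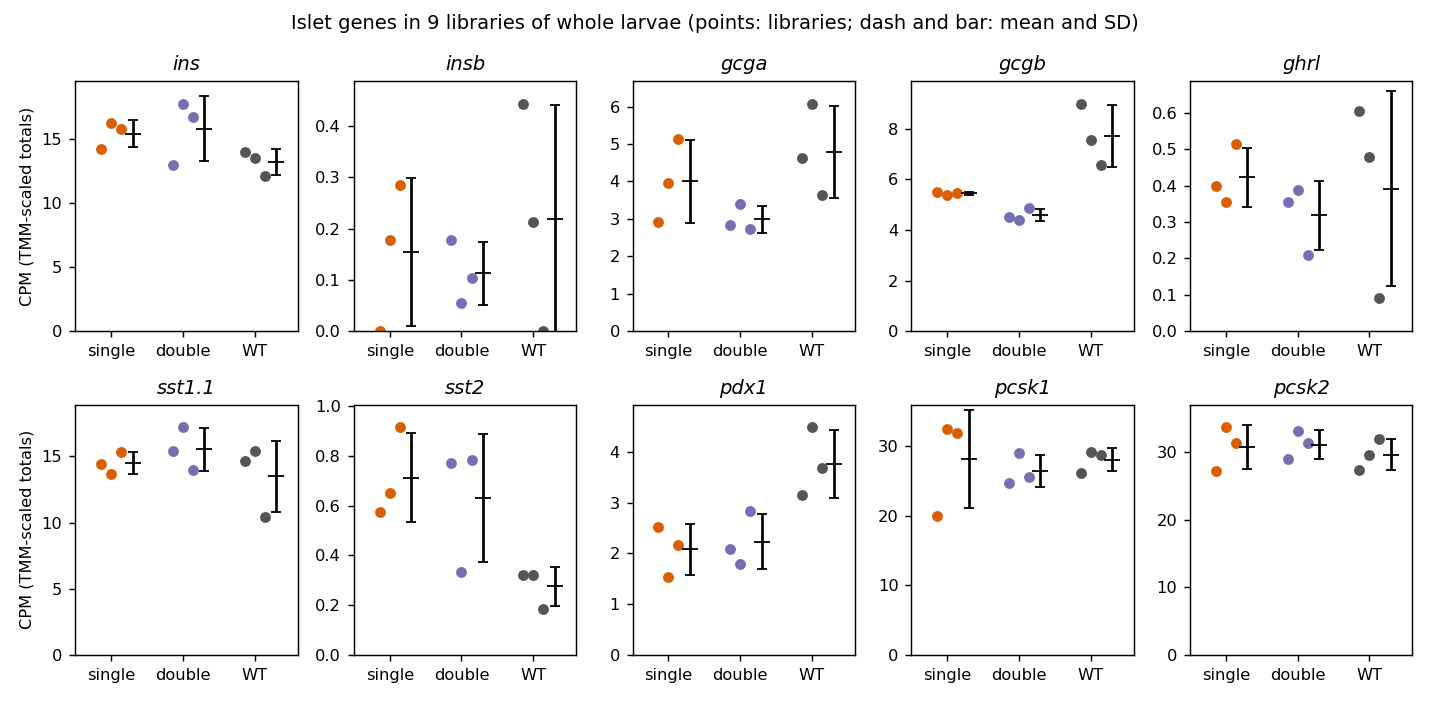
CPM (TMM-scaled totals, linear axes from 0) of the 10 islet genes in single mutants, double mutants and wild type (WT); points are libraries, and dashes with bars are the mean and SD of 3 libraries, with bars cut at 0. The gcgb and pdx1 points of both mutants lie below every wild-type point, while those of pcsk2 overlap.

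The glucagon gene gcgb was lower in both mutants. It encodes a proglucagon precursor and had 5.49, 5.39 and 5.48 CPM in single mutants, 4.51, 4.39 and 4.86 CPM in double mutants and 8.99, 7.57 and 6.56 CPM in wild type. No mutant library reached the lowest wild-type library. The double mutants also lay below the single mutants without overlap, as did 9.50% of all genes. Between the mutants gcgb was not called (edgeR adjusted p = 0.437). Of all genes, 26.5% in single mutants and 27.3% in double mutants lay below wild type without overlap. gcgb fell by 0.50 on the log2 scale in single mutants (SE 0.15, edgeR adjusted p = 0.0143) and by 0.75 in double mutants (SE 0.15, adjusted p = 0.00161). In double mutants gcgb was called under all 18 alternatives, with adjusted p from 0.000542 to 0.0156. In single mutants the call ended without wild-type replicate 1 (log2 fold change −0.34, adjusted p = 0.119) or when single-mutant replicate 2 (adjusted p = 0.0593) or 3 (adjusted p = 0.0509) was dropped.

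The other proglucagon gene, gcga, had 2.92, 3.97 and 5.14 CPM in single mutants, 2.85, 3.39 and 2.72 CPM in double mutants and 4.64, 6.08 and 3.63 CPM in wild type. All double-mutant libraries lay below wild type, as was so for 27.3% of all genes, whereas the single mutants overlapped with wild type. It fell in double mutants (log2 fold change −0.67, SE 0.23, edgeR adjusted p = 0.0381). In single mutants the log2 fold change was −0.25 (95% interval −0.73 to 0.24, adjusted p = 0.411). The call in double mutants ended under 7 of 18 alternatives, with adjusted p up to 0.175. These were limma-voom (adjusted p = 0.0528) and the fits without wild-type replicate 1 (0.0874) or 2 (0.175), any 1 of double-mutant replicates 1 (0.119), 2 (0.0618) and 3 (0.142), or single-mutant replicate 2 (0.0544).

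The somatostatin genes differed in level. The abundant sst1.1 had 14.4, 13.7 and 15.4 CPM in single mutants, 15.4, 17.2 and 13.96 CPM in double mutants and 14.7, 15.4 and 10.4 CPM in wild type. The genotypes overlapped, with a log2 fold change of 0.10 in single mutants (95% interval −0.19 to 0.40, edgeR adjusted p = 0.584) and 0.20 in double mutants (−0.09 to 0.50, adjusted p = 0.286). The direction in single mutants turned to −0.05 without wild-type replicate 3, the lowest library.

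The scarce sst2, a further somatostatin precursor and a marker of delta cells in zebrafish, had 10, 11 and 16 counts in single mutants, 13, 6 and 15 counts in double mutants and 8, 6 and 4 counts in wild type. Their mean was 0.713 ± 0.179 CPM in single mutants, 0.630 ± 0.257 in double mutants and 0.275 ± 0.0794 in wild type (SD over 3 libraries). Each mutant library was above all wild-type libraries, closely so for double-mutant replicate 2, at 0.334 against 0.322 CPM in wild-type replicate 1. In double mutants 22.8% of all genes lay higher without overlap. The row reached the 0.548 CPM that the filter on low counts asks for in 3 single-mutant and 2 double-mutant libraries and in 0 wild-type libraries. It therefore entered the test only through the mutants, where it was high. A row that passes in this way is picked in part for being higher in the mutants. Its fitted log2 fold change was 1.35 in single mutants and 1.18 in double mutants. These values are given as a description, with no test.

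The ghrelin gene ghrl had 7, 6 and 9 counts in single mutants, 6, 7 and 4 counts in double mutants and 15, 9 and 2 counts in wild type, and was not tested. The wild-type libraries spanned the whole range of the mutants. The ratio of summed counts was 1.07 in single mutants to wild type (95% counting interval 0.576 to 1.96) and 0.792 in double mutants to wild type (0.403 to 1.52).

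Lower in both mutants was pdx1, the homeodomain factor that is needed for the pancreas to form and that activates the insulin gene in mature beta cells. It had 2.52, 1.54 and 2.17 CPM in single mutants, 2.08, 1.78 and 2.82 CPM in double mutants and 3.14, 4.48 and 3.67 CPM in wild type. The highest mutant library was below the lowest wild-type library. Lower without overlap were also 26.5% of all genes in single mutants and 27.3% in double mutants. Its log2 fold change reached −0.85 in single mutants (SE 0.24, edgeR adjusted p = 0.0112) and −0.74 in double mutants (SE 0.24, adjusted p = 0.0265). Levels were thus 0.556 and 0.597 times those of wild type. For single mutants the call ended without replicate 2 of that genotype (adjusted p = 0.0735) or wild-type replicate 2 (0.0521). For double mutants it ended without double-mutant replicate 1 (0.0972) or 2 (0.132) or wild-type replicate 2 (0.107) or 3 (0.0556).

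Neither convertase was called. The enzyme of pcsk1, which opens proinsulin and cuts many neuropeptide precursors, had an mRNA level of 19.97, 32.5 and 31.9 CPM in single mutants, 24.6, 29.0 and 25.6 CPM in double mutants and 26.1, 29.1 and 28.7 CPM in wild type. Single-mutant replicate 1 was the lowest of all 9 libraries. The log2 fold change was 0.01 in single mutants (95% interval −0.33 to 0.34, edgeR adjusted p = 0.975) and −0.08 in double mutants (−0.42 to 0.25, adjusted p = 0.726). The single-mutant value had no stable sign: it was −0.05 when libraries were scaled by their totals alone.

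The second convertase gene, pcsk2, whose enzyme releases glucagon from its precursor in alpha cells, was the steadiest of the set. It had 27.3, 33.7 and 31.4 CPM in single mutants, 29.0, 33.1 and 31.4 CPM in double mutants and 27.4, 29.6 and 32.0 CPM in wild type. The genotypes overlapped, and the log2 fold change was 0.05 (95% interval −0.16 to 0.26, edgeR adjusted p = 0.701) and 0.07 (−0.14 to 0.28, adjusted p = 0.625) in single and double mutants. Scaled by total counts alone the single-mutant value was −0.0018.

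Counted together, edgeR called 2 of the 8 tested islet genes as lower in single mutants, gcgb and pdx1, and 1 as higher, the sst2 row that entered only through the mutants and carries no weight here. In that comparison 42.0% of all genes were called (19.5% higher and 22.6% lower). In double mutants it called 0 as higher and 3 as lower, where 32.2% of all genes were called (14.2% higher and 18.0% lower). At an unadjusted p under 0.05, sst2 alone was higher in double mutants, which carries no weight for the same reason. Groups of libraries did not overlap in 49.0% of all genes for single mutants and 50.1% for double mutants. The islet genes called were 3 of 8 in double mutants, all of them lower, and 3 of 8 in single mutants. The single-mutant share counts sst2, and with that call left aside 2 lower genes remained. The median log2 fold change of the 8 genes, sst2 included, was 0.03 in single mutants and −0.01 in double mutants, against −0.01 in each for all genes. The sst2 value was the highest of the 8 in each, so medians without it would lie lower. The 2 comparisons share the wild-type libraries.

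**Figure D2:**
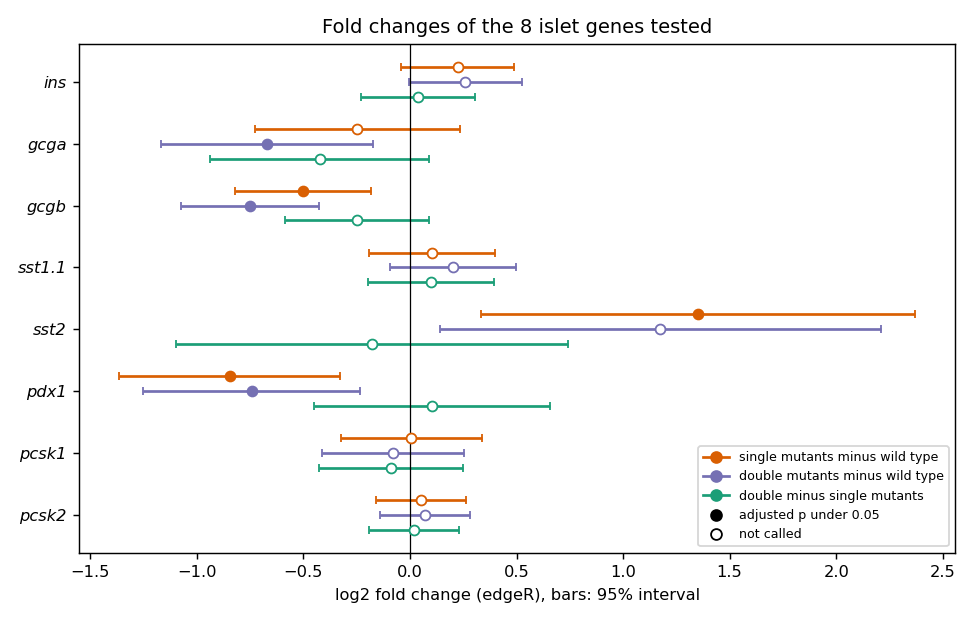
Log2 fold changes of the 8 islet genes tested, with 95% intervals, for single mutants minus wild type, double mutants minus wild type and double minus single mutants; filled points are called at an adjusted p under 0.05. The filled points are gcgb and pdx1 in both mutants, gcga in double mutants and sst2 in single mutants, the last in a row that passed the filter only through the mutants.

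Double mutants were also set against single mutants, which asks what differs when the stl746 allele is added. edgeR called 0 of the 8 genes, where 1.67% of all genes were called (0.668% as higher), and 0 passed an unadjusted p under 0.05. DESeq2 and limma-voom also called 0. The lowest values were those of the glucagon genes, with a log2 difference of −0.42 for gcga (95% interval −0.94 to 0.09, edgeR adjusted p = 0.371) and −0.25 for gcgb (−0.59 to 0.09, adjusted p = 0.437). The gcgb libraries of the mutants did not overlap, as was true of 9.50% of all genes in that direction and 20.2% in either. For ins the difference was 0.04 (−0.23 to 0.30, adjusted p = 0.916), and for pdx1 it was 0.10 (−0.45 to 0.66, adjusted p = 0.879). Without single-mutant replicate 1, pcsk1 was called as lower in double mutants (log2 difference −0.28, edgeR adjusted p = 0.0421). That fit called 3860 genes in all, against 362 with all libraries, and the library left out had the lowest pcsk1 level.

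Ratios of read counts within a library do not depend on how libraries are scaled, and relate the glucagon, somatostatin and pdx1 transcripts to insulin. There were 0.386, 0.332 and 0.348 gcgb reads per ins read in single mutants, 0.349, 0.248 and 0.292 in double mutants and 0.643, 0.559 and 0.544 in wild type. The ratio was lower in every mutant library. For pdx1 to ins it was 0.136 ± 0.0409 in single mutants, 0.143 ± 0.0376 in double mutants and 0.287 ± 0.0551 in wild type (SD, n = 3 each), again without overlap. For gcga to ins it was 0.258 ± 0.0618, 0.191 ± 0.0286 and 0.360 ± 0.0783 in the same order, and only the double mutants lay apart from wild type.

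The sst1.1 to ins ratio was 0.943 ± 0.0888 in single mutants, 0.999 ± 0.180 in double mutants and 1.02 ± 0.140 in wild type, with overlap. The sst2 to ins ratio was 0.0461 ± 0.0103, 0.0418 ± 0.0209 and 0.0206 ± 0.0047, and 1 double-mutant library lay inside the wild-type range. The pcsk1 to pcsk2 ratio was 0.904 ± 0.151, 0.847 ± 0.0306 and 0.944 ± 0.0433, and the double mutants were below wild type. The gcga to gcgb ratio was 0.735 ± 0.203, 0.654 ± 0.108 and 0.624 ± 0.156, with overlap. With 3 libraries against 3, the exact two-sided permutation test cannot give a p below 0.10. Apart from sst2 to ins, which is given as a description, the ratios without overlap reached that limit (exact p = 0.10). Adjusted over the 7 ratios computed in each comparison, sst2 to ins among them, they stood at 0.233 in single mutants and 0.175 in double mutants, so none passed. The ratios of gcgb and pdx1 to ins and of gcga to gcgb were added after the counts had been seen.

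**Figure D3:**
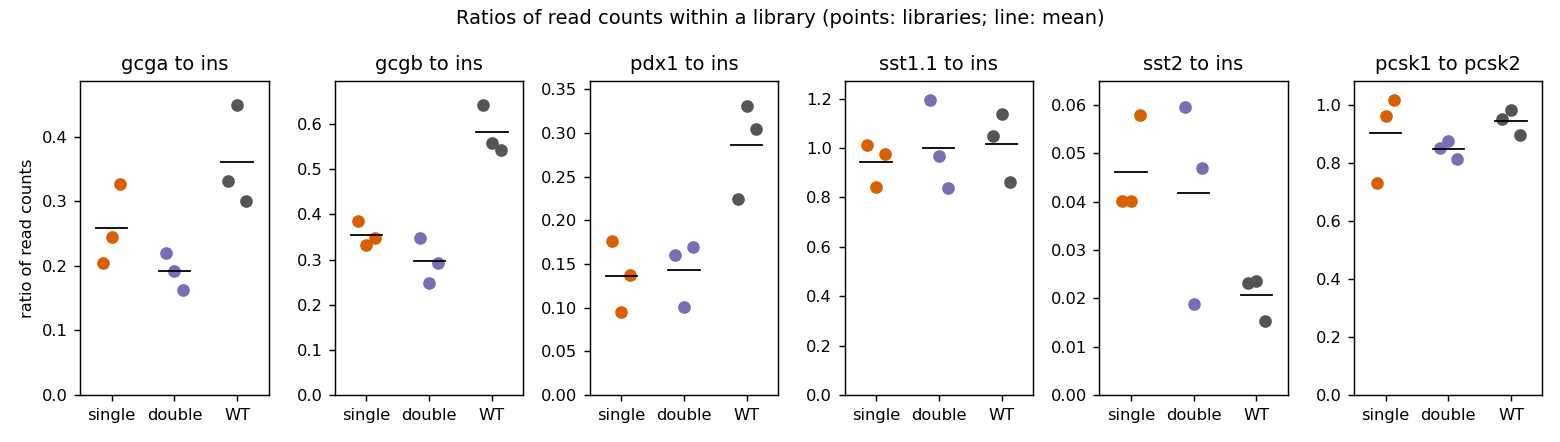
Ratios of read counts within a library for 6 pairs of genes in single mutants, double mutants and wild type (WT), on linear axes from 0; points are libraries and lines are means. The gcgb to ins and pdx1 to ins points of all 6 mutant libraries lie below the wild-type points.

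Beside these modest shifts stood the loss of glucokinase mRNA. The row gck had 13, 6 and 6 counts in single mutants, 10, 6 and 14 counts in double mutants and 481, 181 and 311 counts in wild type. That is 0.481 ± 0.228 CPM in single mutants, 0.553 ± 0.202 in double mutants and 14.4 ± 4.87 in wild type (SD over 3 libraries). gck fell by 4.89 on the log2 scale in single mutants (SE 0.35, edgeR adjusted p = 7.40e-07) and by 4.69 in double mutants (SE 0.34, adjusted p = 9.56e-07). The lowest wild-type library had 9.65 CPM and the highest mutant library 0.744 CPM. Whole-larva counts do not show whether the missing mRNA was that of liver or of beta cells.

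Other markers of beta cells moved unevenly. The zinc transporter gene slc30a8, which loads zinc into insulin granules, fell to 2.04 ± 0.381 CPM in single mutants and 2.17 ± 0.614 in double mutants, against 3.45 ± 0.511 in wild type (SD, n = 3 each). The edgeR adjusted p was 0.0203 for single mutants (log2 fold change −0.76) and 0.0444 for double mutants (−0.67). The motor neuron and beta-cell factor mnx1 had 1.14 ± 0.112, 1.29 ± 0.0582 and 1.44 ± 0.356 CPM, and the homeodomain factor nkx6.2 had 5.95 ± 0.605, 6.69 ± 1.84 and 6.33 ± 1.07 CPM, in single mutants, double mutants and wild type. Neither was called. Thus 2 of the 5 beta-cell markers, pdx1 and slc30a8, were lower in each mutant. Of all genes, 22.6% were called as lower in single mutants and 18.0% in double mutants. Among the alpha-cell markers arxa, a factor of alpha-cell identity, was not called, with 6.83 ± 1.17, 7.41 ± 0.695 and 6.53 ± 1.25 CPM. The delta-cell factor hhex was not called either, with 1.41 ± 0.164, 1.68 ± 0.350 and 1.73 ± 0.461 CPM.

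Of 30 tested transcription factors of the islet and its progenitors, 8 were higher and 2 lower in single mutants, and 9 were higher and 1 lower in double mutants. That is 10 of 30 in each, where 42.0% and 32.2% of all genes were called. The median log2 fold change was 0.07 and 0.17, against −0.01 for all genes in each. The factor neurod1, which endocrine cells share with retina and brain, fell to 80.4 ± 1.54 CPM in single mutants and 86.9 ± 5.64 in double mutants, against 107 ± 7.44 in wild type (adjusted p = 0.000558 and 0.00749). The zinc finger factor insm1a, also of endocrine differentiation, rose to 42.5 ± 3.14 and 47.1 ± 1.89 CPM, against 36.2 ± 2.12 (edgeR adjusted p = 0.0382 and 0.00310). The eye and islet factor pax6b rose in double mutants (48.2 ± 3.52 against 35.8 ± 0.860 CPM, adjusted p = 0.00131) and was at 40.9 ± 2.91 CPM in single mutants (adjusted p = 0.0830). The progenitor factor ascl1b was higher in single mutants, at 28.6 ± 4.71 CPM, than in double mutants, at 19.2 ± 3.01, with a log2 difference of double minus single mutants of −0.58 (adjusted p = 0.0328). Wild type had 17.2 ± 0.301 CPM.

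Genes for precursor processing and dense-core granules were 7 higher and 1 lower of 31 in single mutants, and 4 higher and 2 lower in double mutants, with medians of 0.04 and −0.03. The called share was below the 42.0% and 32.2% of all genes. The row pcsk1nl, which encodes proSAAS, an inhibitor of the pcsk1 enzyme, had 45.4, 50.5 and 41.1 CPM in single mutants, 31.8, 38.5 and 34.4 CPM in double mutants and 23.9, 25.4 and 29.4 CPM in wild type. It rose in each mutant (log2 fold change 0.80, edgeR adjusted p = 3.43e-05, and 0.41, adjusted p = 0.00779), and the mutants did not overlap with wild type. The ubiquitous convertase gene furina rose in single mutants (0.31, adjusted p = 0.00321), with 0.04 in double mutants (adjusted p = 0.736) and an adjusted p of 0.0723 for the difference between the mutants. The granule peptide gene vgf had a log2 fold change of 0.42 (adjusted p = 0.00699) and 0.27 (adjusted p = 0.0734), and the synaptic vesicle protein gene vat1 rose by 0.41 (adjusted p = 0.000199) and 0.29 (adjusted p = 0.00452).

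Of 24 genes of glucose uptake, sensing and exocytosis, 8 were higher and 4 lower in single mutants and 3 higher and 5 lower in double mutants, with medians of 0.10 and 0.06. All genes were called at 42.0% and 32.2%. Besides gck, the row pcxb, a pyruvate carboxylase that feeds the citric acid cycle, fell to 19.7 ± 1.65 and 18.2 ± 1.93 CPM, against 38.6 ± 4.41 in wild type (edgeR adjusted p = 8.87e-06 and 4.93e-06). The facilitative glucose transporters slc2a1a and slc2a1b rose. The first reached 52.1 ± 1.56 CPM in single mutants and 49.9 ± 5.43 in double mutants, against 27.6 ± 4.18 in wild type. The second reached 61.9 ± 6.49 and 70.6 ± 3.12 CPM, against 46.1 ± 3.45.

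Among receptors of the islet hormones, both insulin receptor genes rose. The row insra reached 66.9 ± 5.16 CPM in single mutants and 64.4 ± 3.06 in double mutants, against 50.9 ± 1.74 in wild type (edgeR adjusted p = 0.00110 and 0.00451). The row insrb reached 69.1 ± 10.3 and 56.6 ± 3.93 CPM, against 39.8 ± 0.248 (adjusted p = 2.12e-05 and 0.00132). Neither glucagon receptor gene was called. For gcgra the values were 8.43 ± 2.26, 6.92 ± 0.640 and 7.84 ± 0.951 CPM in single mutants, double mutants and wild type. For gcgrb they were 1.79 ± 0.316, 1.36 ± 0.302 and 1.46 ± 0.530 CPM. None of the 6 tested somatostatin receptor rows (sstr1a, sstr1b, sstr2a, sstr2b, sstr3 and sstr5) was called, with adjusted p from 0.0878 to 0.995 over the 3 comparisons. The ghrelin receptor rows ghsra and ghsrb had at most 0.363 CPM in any library and were not tested.

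Downstream of the insulin receptor, the adaptor genes irs2a and irs1 rose, both named for their small adjusted p within the list. irs2a had 56.8, 116 and 148 CPM in single mutants, 63.3, 72.5 and 66.3 CPM in double mutants and 8.99, 12.8 and 10.6 CPM in wild type. The lowest mutant library was above the highest wild-type library, and single-mutant replicate 1 was the lowest of the 6. Higher without overlap were 22.6% of all genes in single mutants and 22.8% in double mutants. It rose by 3.32 on the log2 scale in single mutants (SE 0.38, edgeR adjusted p = 0.000616) and by 2.65 in double mutants (SE 0.37, adjusted p = 0.00229). For irs1 it was 1.03 (adjusted p = 6.94e-06) and 0.78 (adjusted p = 0.000136). The kinase gene pdpk1a, which activates Akt, rose to 15.4 ± 4.73 CPM in single mutants and 8.31 ± 0.471 in double mutants, against 5.46 ± 0.689 in wild type, and was lower in double than in single mutants (log2 difference −0.88, adjusted p = 0.0386). Over the list, 9 of 26 tested rows were higher and 1 lower in single mutants, and 7 higher and 1 lower in double mutants, near the 42.0% and 32.2% of all genes called, with medians of 0.20 and 0.14.

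A list of 33 tested genes that insulin or glucagon is known to regulate in liver or muscle held 19 higher and 4 lower in single mutants (median log2 fold change 0.96). In double mutants 12 were higher and 3 lower, with a median of 0.44. Over all genes 42.0% and 32.2% were called, with medians of −0.01. The list holds gck and was chosen with earlier results of these data known. The direction in which insulin or glucagon regulates each gene was not taken into account. The fasting-induced transcription factor klf15 rose to 74.2 ± 7.41 and 76.7 ± 2.97 CPM, against 38.2 ± 2.66 in wild type (edgeR adjusted p = 1.23e-06 and 9.45e-07). The glycolytic regulator pfkfb4a rose to 28.5 ± 3.999 and 26.3 ± 0.866 CPM, against 13.9 ± 1.19. The glucose-responsive txnipb rose to 24.7 ± 5.37 and 28.2 ± 2.18 CPM, against 14.3 ± 0.990. Between the mutants edgeR called 0 of the 33. Without single-mutant replicate 1, an alternative chosen after seeing the data, 1 was higher and 20 were lower in double than in single mutants. That comparison called 3860 genes in all. In the same fit 19 were higher and 6 lower in double mutants against wild type, where 8697 genes were called in all.

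**Figure D4:**
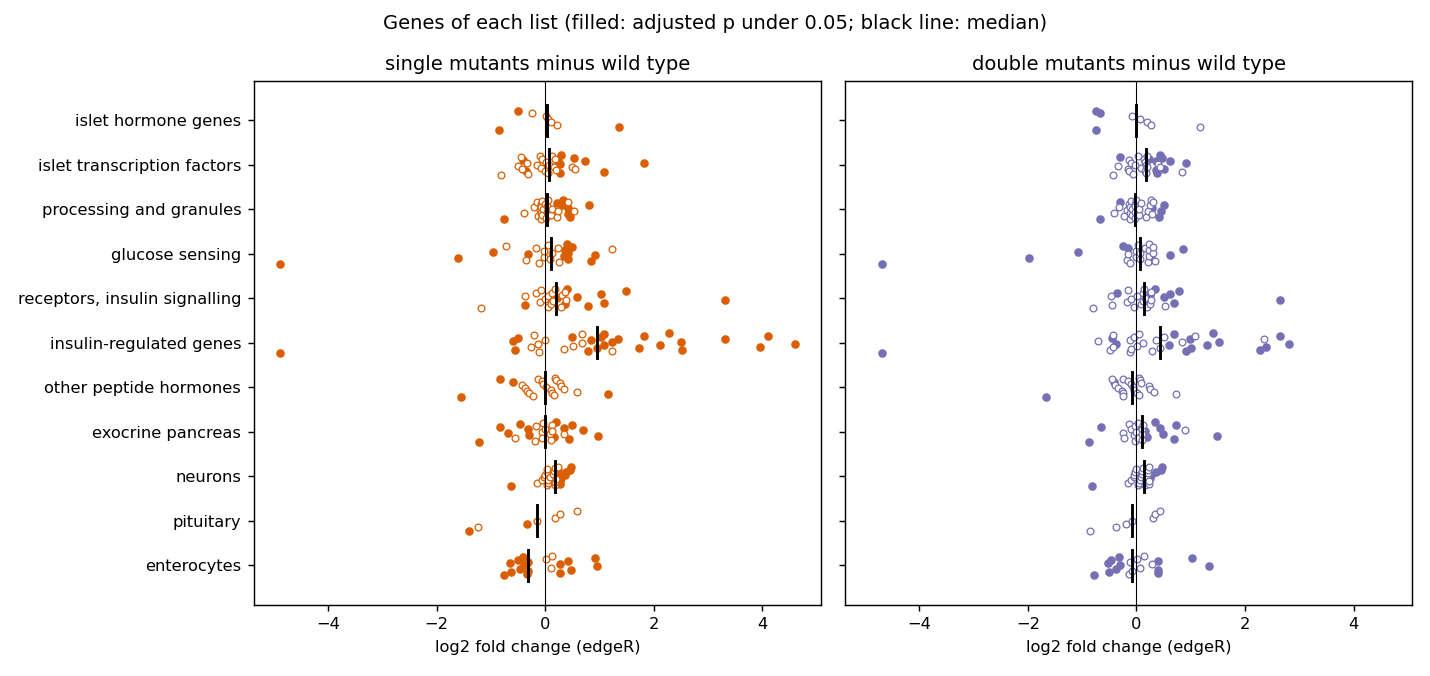
Log2 fold changes of every tested gene of 11 lists, for single mutants minus wild type (left) and double mutants minus wild type (right), on a shared axis; filled points are called at an adjusted p under 0.05 and black lines are list medians. The islet hormone genes centre near 0 with medians of 0.03 and −0.01, which include the sst2 row that passed the filter only through the mutants. Insulin-regulated genes have medians of 0.96 and 0.44. The row gck, held by that list and by glucose sensing, lies farthest to the left. The lists were chosen with earlier results of these data known.

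Other endocrine and tissue rows were read beside the islet genes. Of 22 tested peptide hormone genes of gut and brain, 1 was higher and 3 lower in single mutants and 0 higher and 2 lower in double mutants by edgeR, below the 42.0% and 32.2% of all genes called, with medians of −0.01 and −0.08. The gut and islet peptide gene pyyb fell to 0.677 ± 0.250 and 0.612 ± 0.441 CPM, against 1.98 ± 0.483 in wild type (adjusted p = 0.00743 and 0.00666). The nesfatin precursor gene nucb2b fell to 21.4 ± 1.56 and 24.4 ± 3.34 CPM, against 32.3 ± 0.699 (adjusted p = 0.000336 and 0.00728). The neuropeptide genes galn and nmbb were called in single mutants, galn as lower (log2 fold change −0.84, adjusted p = 0.00961) and nmbb as higher (1.15, adjusted p = 0.0198).

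Exocrine pancreas, the acinar tissue that surrounds the islet, had 7 of 25 genes higher and 6 lower in single mutants, and 8 higher and 2 lower in double mutants, where 42.0% and 32.2% of all genes were called. The medians were 0.00 and 0.09. The summed level of its list was 18258 to 18387 CPM in single mutants, 18070 to 19146 in double mutants and 16430 to 17774 in wild type. The chymotrypsin-like ctrl rose to 1138 ± 18.1 and 1162 ± 59.0 CPM, against 706 ± 37.4, and the carboxypeptidase cpa1 rose to 280 ± 17.6 and 319 ± 9.48 CPM, against 198 ± 24.5. The lipase cel.2 rose as well (log2 fold change 0.35 and 0.44, edgeR adjusted p = 0.000624 and 0.000159). Only cpa4 of the 4 named enzymes was lower, in single mutants (−0.47, adjusted p = 0.000901), and it was higher in double than in single mutants (0.44, adjusted p = 0.0247). The summed level was higher in every mutant library than in any wild-type library. The part of exocrine tissue in the values of the islet genes was not tested.

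Neurons, which also use pcsk1, pcsk2 and sst1.1, had 10 of 28 genes higher and 1 lower in single mutants and 5 higher and 1 lower in double mutants, where 42.0% and 32.2% of all genes were called. The medians were 0.17 and 0.14. Their summed level was 1399 to 1617 CPM in single mutants, 1441 to 1538 in double mutants and 1286 to 1350 in wild type. The axonal gene maptb (log2 fold change 0.46 and 0.45) and the neuronal splicing factor rbfox3a (0.48 and 0.47) rose in both, while gad1a, an enzyme of GABA synthesis, fell (−0.63 and −0.82). The part of this summed level in the values of pcsk1, pcsk2 and sst1.1 was not tested. In the pituitary list 7 of 17 rows had enough counts, with 0 higher and 2 lower in single mutants, cga and six1b, and 0 called by edgeR in double mutants (adjusted p from 0.0545 up), with medians of −0.15 and −0.09. Without single-mutant replicate 1, 9 rows were tested, and in double mutants 2 were higher and 0 lower, with a median of 0.30. That fit called 8697 genes in all in double mutants against wild type.

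Enterocytes line the gut, where pdx1 is also used. Of 19 genes, 6 were higher and 10 lower in single mutants and 5 higher and 7 lower in double mutants, where 42.0% and 32.2% of all genes were called. The medians were −0.31 and −0.07. The lipid carriers fell: apoa4b.1 to 438 ± 44.4 and 429 ± 23.3 CPM, against 736 ± 29.0, and fabp2 to 386 ± 22.9 and 421 ± 28.4 CPM, against 597 ± 54.9. The peptidase anpepb rose to 314 ± 40.4 and 336 ± 31.7 CPM, against 166 ± 16.4, and apoa1a fell (log2 fold change −0.39 and −0.33). The summed level of the whole list was 10754 to 11348 CPM in single mutants, 10827 to 11525 in double mutants and 10206 to 11103 in wild type. The summed level of the 3 markers set down for enterocytes was lower in the mutants. It was 921 to 1059 CPM in single mutants and 978 to 1073 in double mutants, against 1376 to 1514 in wild type, without overlap. The lipid carriers apoa4b.1 and fabp2 above are 2 of these 3 markers. In each mutant edgeR called both as lower and the remaining 1 as higher, so the sum follows the lipid carriers. The part of gut epithelium in the lower pdx1 level was not tested.

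The patterns over the 9 libraries were compared as the root mean square difference of log2 CPM, each gene centred on its own mean. Nearest to ins were tmem266 (0.0678), elmo2 (0.0778) and cacna1ha (0.0793). Nearest to gcgb were abracl (0.0759), itgb1b.2 (0.0819) and ech1 (0.0852), and nearest to gcga were spam1 (0.140), si:ch211-102c2.4 (0.156) and myo19 (0.165). Nearest to pdx1 were ilkap (0.120), rx2 (0.1498) and tbcc (0.161). Nearest to sst1.1 was tmem199 (0.0653), to sst2 rab1aa (0.174), to pcsk1 galnt9 (0.0554) and to pcsk2 edil3a (0.0374). No islet gene was among the 3 nearest of another. Such likeness is a description of these 9 libraries.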

How the data were processed

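The build GRCz11 and the tools STAR, cutadapt, DESeq2 and featureCounts are named per the submitters' processing notes. Not given in the sources used here are versions, annotation, strand setting and how multimapping reads were handled, so reads shared by paralogues such as gcga and gcgb could have been split or dropped. The deposited table holds the authors' raw counts per gene name, whole numbers without normalization, and all 9 sample columns matched a label. Genes were kept with filterByExpr by genotype (21694 of 28802), scaled by TMM and tested with edgeR 4.0.16 (quasi-likelihood F test, robust) in R 4.3.3, all 9 libraries in 1 fit with 6 residual degrees of freedom. Benjamini-Hochberg adjustment ran over every tested gene, with calls made under 0.05. Alternatives used DESeq2 1.42.0 and limma 3.58.1. The steps were run on simulated data in which far fewer genes changed than were called here. That run therefore does not cover shifts as broad as these. Ratios were compared with exact permutation tests.

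Genes named are the 10 islet genes, fam177a1, gck, up to 4 genes per list with the smallest adjusted p against wild type, hormone receptor rows, the markers of islet cell types, and the genes most alike; 1 gene that this rule names is not reported here. Of 294 list symbols, 267 were in the table. The genes and lists were chosen with earlier results of these data known.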

Additional observations from a re-analysis of the deposited data

How the results depend on the processing

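Under the alternatives, the count of islet genes called in single mutants was 3 throughout for scaling, limma-voom, no filter, the 6 libraries compared and the replicate block, and 2 with DESeq2 or the stricter filter. These counts include sst2, which entered only through the mutants. Leaving out 1 library gave 0 to 3 in single mutants (0 without single-mutant replicate 2), 1 to 3 in double mutants and 0 to 1 between the mutants. The count of all genes called between the mutants was 362. It was 883 with DESeq2, 184 with only the 6 libraries compared, and 108 to 3860 when 1 library was left out (3860 without single-mutant replicate 1). The cause was not tested. Without that library, an alternative chosen after seeing the data, lists moved too: between the mutants receptors and insulin signalling went to 0 higher and 9 lower and precursor processing to 1 and 5, neurons in double mutants to 9 and 1, pituitary in double mutants to 2 and 0, and other peptide hormones in single mutants to 3 and 3. Without single-mutant replicate 1, 8697 genes were called in double mutants and 10363 in single mutants, against 6990 and 9116 with all libraries. Signs turned for these values. In single mutants pcsk1 was at −0.051 with total counts, −0.024 with limma-voom and −0.015 with the replicate block, and pcsk2 at −0.0018 with total counts. With 1 library left out, the range in single mutants was −0.072 to 0.20 for pcsk1 and −0.052 to 0.21 for sst1.1. Between the mutants it was −0.066 to 0.15 for ins, −0.39 to 0.11 for sst2, −0.12 to 0.27 for pdx1, −0.28 to 0.014 for pcsk1, −0.061 to 0.075 for pcsk2, −0.078 to 0.66 for gck and −0.48 to 0.12 for fam177a1. Over the islet genes and alternatives, 385 values kept their direction and side of the threshold, 22 lost a call, 3 gained one and 18 turned. These totals include sst2, which gave 6 of the lost calls and 1 of the gained ones and carries no weight.

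Same-numbered libraries deviated together with correlations of −0.0354 to 0.0609, below the 0.1 that was set as the threshold for pairing. With the replicate block 9054, 7006 and 373 genes were called in single mutants, double mutants and between the mutants, against 9116, 6990 and 362, and 3, 3 and 0 islet genes. The libraries correlated best with their own number in 2, 3 and 6 of 6 cases, in the same order. Between the mutants the correlations were 0.0264 to 0.0609 for equal numbers and −0.064 to 0.0106 for unequal numbers. A weak pairing by number between the mutants therefore remains possible. Depth limits insb, ghrl and sst2, each at 16 counts or fewer per library.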
